A study of Homo sapiens with 6 samples.

Results

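The RNA of 9 steroid and related nuclear receptors was compared between androgen-treated and solvent-treated C4-2 cells. The members were taken by symbol from the gene count tables, 9 of 55765 gene symbols, and are NR3C1, NR3C2, PGR, ESR1, ESRRA, RXRA, VDR, NR2F1 and NR2F2. C4-2 is an established castration-resistant prostate cancer (PCa) cell line that was derived from LNCaP. The cells were kept in serum-containing DMEM and received either the solvent DMSO or the synthetic androgen R1881 at 1 nM, a supraphysiological androgen level (SAL), for 72 h. Of the 6 libraries, 3 were from DMSO and 3 from SAL, numbered 1 to 3 in each group, and the study describes them as independent repeats. All results are therefore those of 1 cell line, 1 dose and 1 time point.

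Nuclear receptors are transcription factors that bind DNA through a domain of zinc fingers and most of which are switched by a small lipid-soluble ligand. The receptors for glucocorticoids (NR3C1), mineralocorticoids (NR3C2) and progesterone (PGR) are close relatives of each other and recognise the same class of DNA element, while the estrogen receptor (ESR1) and the orphan receptor ERR alpha (ESRRA) recognise another. VDR, the vitamin D receptor, binds DNA together with RXRA, the retinoid X receptor that is the shared partner of many receptors, and NR2F1 and NR2F2 (COUP-TFI and COUP-TFII) are orphan receptors. In prostate cancer, the glucocorticoid receptor is known for its part in resistance to hormone therapy.

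The kinship of the members can be read from the coding sequence of their first zinc finger. The stretches shown here are 54 bases of the canonical transcripts (GRCh37 with the GENCODE v44 annotation), written from 5′ to 3′ on the coding strand. Capitals mark 18 bases, the 6 codons that hold the P-box, the residues with which the finger reads the DNA element. Each stretch is coding exon sequence, and the one of VDR runs across the junction of exon 3 and exon 4.
NR3C1 (chr5:142693571-142693624, minus strand, exon 3): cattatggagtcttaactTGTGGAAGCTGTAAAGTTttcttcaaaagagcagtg
NR3C2 (chr4:149181134-149181187, minus strand, exon 3): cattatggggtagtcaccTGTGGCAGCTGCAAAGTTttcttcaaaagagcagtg
PGR (chr11:100996742-100996795, minus strand, exon 2): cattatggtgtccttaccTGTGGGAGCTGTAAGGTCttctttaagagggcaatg
ESR1 (chr6:152163865-152163918, plus strand, exon 2): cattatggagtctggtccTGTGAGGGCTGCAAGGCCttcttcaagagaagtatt
ESRRA (chr11:64074919-64074972, plus strand, exon 2): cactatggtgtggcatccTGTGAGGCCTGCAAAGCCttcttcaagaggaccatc
RXRA (chr9:137300791-137300844, plus strand, exon 4): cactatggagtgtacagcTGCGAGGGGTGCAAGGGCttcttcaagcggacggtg
VDR (chr12:48258951-48272794, minus strand, exons 3 and 4): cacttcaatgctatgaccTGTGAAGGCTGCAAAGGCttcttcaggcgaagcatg
NR2F1 (chr5:92921018-92921071, plus strand, exon 1): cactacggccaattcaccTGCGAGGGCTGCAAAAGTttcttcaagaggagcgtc
NR2F2 (chr15:96875602-96875655, plus strand, exon 1): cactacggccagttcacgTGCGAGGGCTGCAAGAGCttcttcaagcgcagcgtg

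The 6 codons in capitals encode the same residues in NR3C1, NR3C2 and PGR, the same residues in RXRA and VDR, and the same residues in NR2F1 and NR2F2, and all other pairs of members differ in them. Over the 54 bases, NR3C1 and NR3C2 were identical at 47, NR3C1 and PGR at 43 and NR3C2 and PGR at 42. NR2F1 and NR2F2 were also identical at 47 bases, and reads that mapped to both genes were not counted for either.

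Between 6931042 and 9776990 reads per library were counted on genes after the removal of rRNA genes, which had taken from 11.9% to 27.8% of the gene counts. Libraries with the same replicate number were alike, so SAL was compared with DMSO within replicate numbers, as in the paired test of the study. Levels are CPM, the counts scaled by edgeR to libraries of a common size. A gene was called where edgeR's quasi-likelihood test gave it a p under 0.05 after Benjamini-Hochberg adjustment over all genes tested. Such a p sets the change against the spread left among these 6 libraries once differences between replicate numbers are removed. For each gene, edgeR draws this spread toward a trend over all genes tested, so it is not the gene's own spread alone. KLK3, the gene of prostate-specific antigen and known to respond to androgens, was higher in SAL in the same test, by 1.21 ± 0.10 on the log2 scale (± standard error here and wherever a log2 value carries it, adjusted p = 3.33e-07). Of the marker lists, the summed prostate luminal markers were at 2490 to 4520 CPM in DMSO and 4760 to 9580 CPM in SAL, and the other lists were low. The luminal list holds KLK3 and other genes known to respond to androgens. The summed basal markers were at 0.128 to 0.372 CPM over both groups, with KRT5 at 0 counts in every library, and the summed immune markers at 0.128 to 0.534 CPM, with PTPRC at 0. The summed neuroendocrine markers were at 2.11 to 3.95 CPM and the summed stromal markers at 2.11 to 10.5 CPM. The stromal sum was mostly COL1A1, at means of 6.09 CPM in DMSO and 6.90 CPM in SAL, with COL1A2 and DES at 0. The DMSO means of the members NR3C1 and PGR, 1.56 and 2.59 CPM, lay below that of COL1A1. In bulk RNA, fewer cells that express a gene and less of its RNA per cell cannot be told apart.

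The RNA of NR3C1, NR3C2 and PGR was lower in SAL. These 3 members share the same P-box residues, but this sorting was made after values were seen. NR3C1 and PGR also passed the filter on low counts through DMSO alone, so a lower level in SAL was built in for them. NR3C2 fell to 46.4% of its DMSO level, and NR3C1 and PGR, which were already at a few CPM in DMSO, fell to 17.4% and 8.18%. VDR fell to 62.9%. ESRRA, RXRA and NR2F2, which together with NR3C2 and VDR made up the well expressed members, did not pass the test, and NR2F1 and ESR1 were too low to be tested. No member was called higher in edgeR or in DESeq2, and at an unadjusted p under 0.05, 1 was higher in edgeR (NR2F2) and 0 in DESeq2.

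Of the 9 members, 7 passed the filter on low counts and 4 of these were called, all lower in SAL, where 9.37% of the 16835 genes tested were called lower. NR3C1 and PGR passed the filter through their DMSO libraries alone (all 3 above the filter level of 1.23 CPM, taken before normalization, and no SAL library above it). Genes that pass in this way had to differ between the groups, so the count of 4 is a description of the members tested. Of the 5 members with at least 10 counts in every library, 2 were called, NR3C2 and VDR, and under this filter 10.1% of all genes were called lower. The CPM of the groups did not overlap for 3 of the 7 members tested, NR3C1, NR3C2 and PGR, with SAL below DMSO in each. For NR3C1 and PGR this was fixed by how they passed the filter. Of the 5 members with at least 10 counts in every library, the groups did not overlap for 1, NR3C2. Of all genes tested, 3.73% had SAL below DMSO without overlap, 3.78% had SAL above, and 7.51% had either. The median log2 fold change was -0.64 over the 7 members tested and -0.0011 over all genes tested. Values below 0 were built into the first median for NR3C1 and PGR by the filter, so it is also a description only. The 5 members with at least 10 counts in every library lay between -1.07 (NR3C2) and 0.23 (NR2F2).

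**Figure D1:**
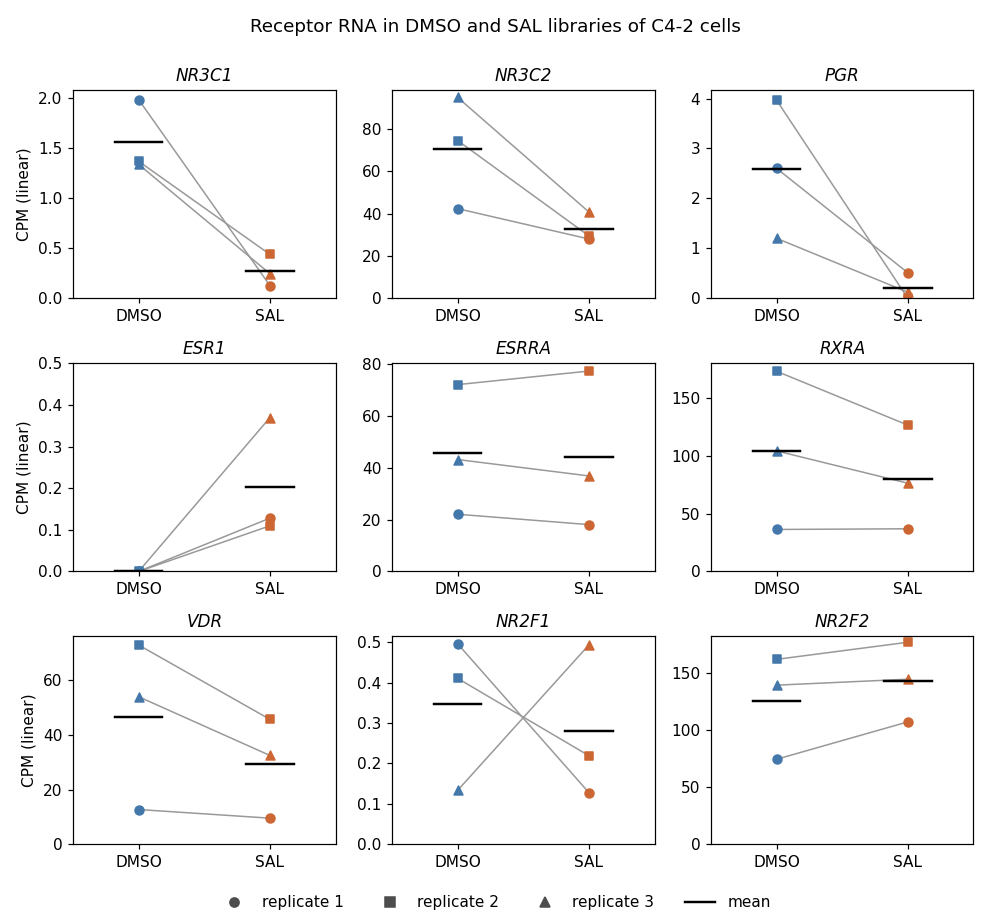
CPM of each of the 9 receptors on linear axes that start at 0, in the DMSO and SAL libraries. Symbols mark the replicate number, grey lines join libraries of the same number and black bars are the means of 3. In NR3C1, NR3C2 and PGR every SAL library lies below every DMSO library, while in ESRRA, RXRA, VDR and NR2F2 the distance between replicate numbers is larger than that between treatments.

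Values are given in the order of replicates 1, 2 and 3 throughout. The mineralocorticoid receptor gene NR3C2 (chromosome 4, 148999913 to 149365850, minus strand, in GRCh37) encodes a receptor that binds aldosterone and, with similar affinity, cortisol. It was counted 342, 545 and 710 times in DMSO, and 219, 269 and 331 times in SAL. This was 42.4, 74.5 and 94.9 CPM in DMSO and 28.0, 29.5 and 40.8 CPM in SAL, so that the highest SAL library stayed below the lowest DMSO library. From a mean of 70.6 ± 26.5 CPM it fell to 32.8 ± 6.97 CPM (SD, n = 3). The fit gave -1.07 ± 0.13 on the log2 scale (adjusted p = 5.92e-05), with -0.59, -1.33 and -1.21 in pairs 1, 2 and 3. The smallest change was thus in replicate 1, where the DMSO level was lowest, and the 3 SAL libraries lay closer to each other than the 3 DMSO libraries.

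The glucocorticoid receptor gene NR3C1 (chromosome 5, 142657496 to 142815077, minus strand) encodes the receptor through which most tissues respond to cortisol. It was counted 16, 10 and 10 times in DMSO, and 1, 4 and 2 times in SAL. The DMSO levels were 1.98, 1.37 and 1.34 CPM and the SAL levels 0.128, 0.439 and 0.246 CPM, with every SAL library lower. The fit gave -2.42 ± 0.60 on the log2 scale (adjusted p = 0.00902, edgeR). NR3C1 passed the filter through DMSO alone, so a lower SAL level was built in and its p-values are a description only. Summed over each group, 36 counts in DMSO stood against 7 in SAL, a ratio of 0.178 after scaling to library size, with a 95% exact binomial interval from 0.0667 to 0.405 that covers counting error only. The size of the change was uncertain, at -1.92 without replicate 1 and -3.05 without replicate 2. The adjusted p was 0.0522 with DESeq2 and 0.0636 in edgeR without replicate 3.

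The progesterone receptor gene PGR (chromosome 11, 100900355 to 101000544, minus strand) is a classical target of the estrogen receptor in breast and uterus. It was counted 21, 29 and 9 times in DMSO, and 4, 0 and 1 times in SAL. In CPM this was 2.60, 3.97 and 1.20 in DMSO, and 0.512, 0 and 0.123 in SAL. All SAL libraries were below all DMSO libraries, and the count of 0 allowed up to 0.329 CPM in SAL replicate 2. The fit gave -3.58 ± 0.66 on the log2 scale (adjusted p = 0.00121, edgeR). PGR passed the filter through DMSO alone, so a lower SAL level was built in and its p-values are a description only. Summed over each group, 59 counts stood against 5, a ratio of 0.0774 with an exact binomial interval from 0.0242 to 0.191. Without replicate 2, which holds the highest DMSO count and the SAL count of 0, the log2 fold change was -2.56 (adjusted p = 0.0151 from edgeR), and without replicate 1 the gene did not pass the filter.

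**Figure D2:**
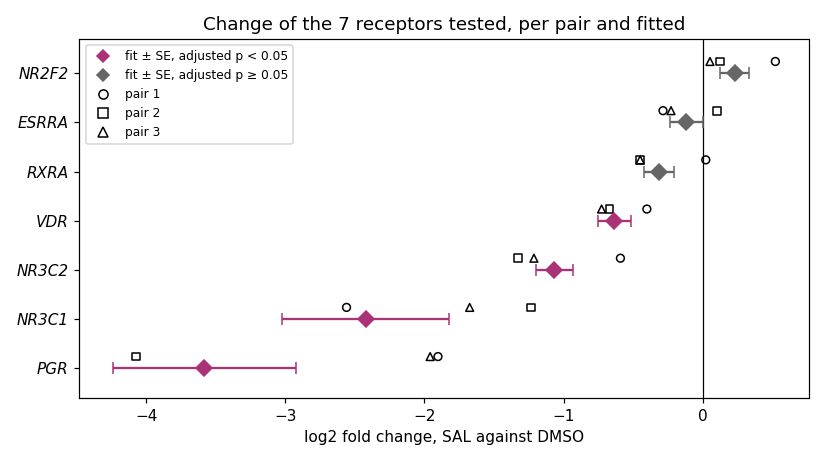
Log2 fold change of SAL against DMSO on the horizontal axis for the 7 receptors tested. Diamonds with bars are the fitted change ± standard error, purple where the adjusted p was under 0.05 and grey otherwise, and open symbols are the changes of the 3 same-numbered pairs, which are drawn closer to 0 for the receptors with few counts because 2 counts were added on average to each library before the logarithm. NR3C1, NR3C2, PGR and VDR lie left of 0 in all pairs.

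The vitamin D receptor gene VDR (chromosome 12, 48235320 to 48336831, minus strand) encodes the receptor for calcitriol, which slows the growth of many prostate cell lines. It was counted 103, 533 and 404 times in DMSO, and 75, 417 and 264 times in SAL. The DMSO levels of 12.8, 72.9 and 54.0 CPM and the SAL levels of 9.60, 45.7 and 32.5 CPM overlapped, but SAL was lower in each pair, with changes of -0.40, -0.67 and -0.73 on the log2 scale. The fit gave -0.64 ± 0.12 on the log2 scale (adjusted p = 0.00119), from 46.5 ± 30.7 to 29.3 ± 18.3 CPM (SD, n = 3). Without replicate 3, the log2 fold change was -0.57 and the adjusted p was 0.0844 (edgeR).

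RXRA (chromosome 9, 137208944 to 137332431, plus strand), whose product pairs with VDR and with the retinoid, thyroid hormone and PPAR receptors, was next in order. It was at 36.3, 173 and 104 CPM in the DMSO replicates and at 36.9, 127 and 76.3 CPM in the SAL replicates. The level was lower in SAL in pairs 2 and 3, with a change of -0.45 in each, and nearly the same in pair 1 at 0.02. The fitted change of -0.31 ± 0.11 (adjusted p = 0.0554) was just outside the threshold. It was past it without replicate 1, at -0.45 (adjusted p = 0.000249), and without the filter on low counts, at -0.30 (adjusted p = 0.0356, all from edgeR).

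ESRRA (chromosome 11, 64072969 to 64084215, plus strand) encodes ERR alpha, a regulator of genes of oxidative metabolism that needs no known hormone. Its levels were 22.1, 72.1 and 43.2 CPM in DMSO and 18.1, 77.3 and 36.8 CPM in SAL, lower in pairs 1 and 3 and higher in pair 2. The fit gave -0.12 ± 0.12 on the log2 scale (adjusted p = 0.532). Of its exon bases, 9.16% are shared with TRMT112 on the other strand, and reads lying wholly in both genes were not assigned to either.

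NR2F2 (chromosome 15, 96869167 to 96883492, plus strand) was the only member tested with a log2 fold change above 0. Its 600, 1181 and 1040 counts in the DMSO replicates and 835, 1609 and 1170 in the SAL replicates gave 74.3, 161 and 139 CPM in DMSO and 107, 176 and 144 CPM in SAL. The level was higher in SAL by 0.52, 0.13 and 0.05 in the 3 pairs, most in replicate 1. The fitted change of 0.23 ± 0.11 (adjusted p = 0.146) did not pass the threshold. Its paralog NR2F1 (chromosome 5, 92918928 to 92930317, plus strand) was counted 4, 3 and 1 times in DMSO, and 1, 2 and 4 times in SAL. The groups overlapped, and a difference was not detectable at this depth.

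ESR1 (chromosome 6, 151977826 to 152450754, plus strand), the estrogen receptor alpha gene, had no counts in the DMSO libraries and 1, 1 and 3 in the SAL replicates. With 3 counts taken as the floor, which is 0.329 to 0.410 CPM in these libraries, both groups were at or under it and no fold change is given. No exon bases of NR3C1, NR3C2, PGR, ESR1 or VDR are shared with another gene of the count tables, and 0.513% to 3.61% are in RXRA, NR2F1 and NR2F2.

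The members fell into a well expressed and a scarce set when levels were set per length of exon. In DMSO, NR2F2 was highest at 19.3 ± 6.99 CPM per kb, followed by ESRRA at 14.8 ± 8.10, NR3C2 at 10.7 ± 4.01, RXRA at 8.66 ± 5.66 and VDR at 8.20 ± 5.42 CPM per kb (SD, n = 3). The libraries of each of these neighbours overlapped, so their order is not beyond the spread. The next member, PGR, was at 0.176 ± 0.0940 CPM per kb and did not overlap with VDR, and NR3C1 overlapped with PGR. NR2F1 was lower than NR3C1 in every DMSO library, at 0.0791 ± 0.0432 CPM per kb, and ESR1 was at 0.
In SAL, the order of the first members was NR2F2 at 22.0 ± 5.37 CPM per kb, ESRRA at 14.2 ± 9.76, RXRA at 6.62 ± 3.72, VDR at 5.16 ± 3.22 and NR3C2 at 4.96 ± 1.06. By its mean, NR3C2 thus stood before RXRA and VDR in DMSO and after them in SAL, although its libraries overlapped with those of both neighbours in DMSO and of VDR in SAL. The 4 scarce members lay between a mean of 0.0144 CPM per kb for PGR and 0.0639 for NR2F1 in SAL, and each overlapped with its neighbour.

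**Figure D3:**
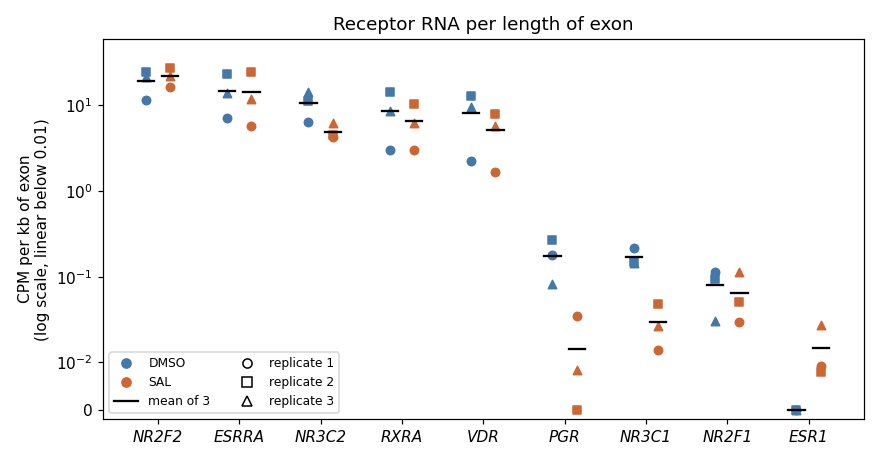
CPM per kb of exon for the 9 receptors, ordered by their DMSO mean, on an axis that is logarithmic above 0.01 and linear below. Points are single libraries, with the shape giving the replicate number, and bars are means of 3. The first 5 receptors lie well above the other 4 in both groups, and the SAL libraries of NR2F1, NR3C1, ESR1 and PGR overlap from each to the next, at means of 0.0639, 0.0296, 0.0147 and 0.0144 CPM per kb.

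The members also differed in what set their spread. In the log2 CPM of RXRA, VDR and NR2F2, 95.3%, 91.7% and 86.0% of the variation (sum of squares) lay between replicate numbers, and in ESRRA nearly all of it did. In NR3C2, 65.1% lay between the treatments. In NR3C1 and PGR it was 90.4% and 80.6%, but a large share was built in there, since both passed the filter through DMSO alone. The libraries of replicate 1 were the lowest of their group in ESRRA, RXRA, VDR, NR2F2 and NR3C2. The same 2 libraries had the highest shares of rRNA, 27.7% in DMSO and 27.8% in SAL against 11.9% to 22.0% in the others, and the part of this in the levels of replicate 1 was not tested. Without the replicate block none of the 7 members was called (3 at an unadjusted p under 0.05), with adjusted p-values of 0.363 for NR3C1 and PGR and of 1 for the others in edgeR, while the log2 fold changes of all 7 kept their sign.

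The upstream sequence of the members was searched for the hexamers that receptors bind, in the RefSeq windows of 250 bases before each annotated start (GRCh38.p14), with 27 windows for 8 members. VDR had no window in this set. A window of NR2F2 (chromosome 15, 96332315 to 96332564) holds the coding stretch shown above for NR2F2, so the windows are not all noncoding sequence. None of the 14 windows of NR3C1, NR3C2 and PGR, some of which overlap, held AGAACA on either strand, the hexamer of the element that these 3 receptors share. Of all 35116 windows, 12.4% held it, as did 3 of the 27 windows of members, 1 each in ESR1, RXRA and NR2F1. The hexamer AGGTCA, read by most other nuclear receptors, was in 12.1% of all windows and in none of the members. These are matches of letters near annotated starts and not bound sites.

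The other nuclear receptors, a list of 38 genes, were mostly not called. Of the 23 tested, 2 were called higher and 1 lower, at 8.70% and 4.35%, where 11.5% and 9.37% of all genes were. Their median was -0.13 on the log2 scale, and 14 had values below 0 and 9 above. NR4A1, an orphan receptor of the immediate early class, rose from 5.37 ± 2.14 to 14.5 ± 8.56 CPM (SD, n = 3), which the fit put at 1.38 ± 0.20 on the log2 scale (adjusted p = 0.000152). It was counted 24, 52 and 45 times in DMSO, and 47, 211 and 116 times in SAL, higher in each pair. Of the fatty acid receptors, PPARA rose by 0.43 (adjusted p = 0.0180) and PPARD fell by 0.42 on the log2 scale (adjusted p = 0.0399, both edgeR), each in the same direction in all pairs, but neither was called with DESeq2, without replicate 3 or without the block. PPARD was also not called without replicate 1, without replicate 2 or without the filter. RXRB, another retinoid X receptor, was put by the fit at -0.36 ± 0.15 on the log2 scale and was not called (adjusted p = 0.113), and RXRG had no counts.

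Enzymes that make or clear the ligands of these receptors gave 3 called genes of 9 tested, 2 higher and 1 lower in SAL (22.2% and 11.1%, against 11.5% and 9.37% of all genes). The median log2 fold change of the 9 was 0.01. HSD11B2, which inactivates cortisol and so keeps it from the mineralocorticoid receptor, fell from 8.62 ± 5.81 to 5.14 ± 2.85 CPM (SD, n = 3). It was counted 26, 108 and 59 times in DMSO, and 15, 67 and 50 times in SAL, which the fit put at -0.72 ± 0.22 on the log2 scale (adjusted p = 0.0328). It was not called with DESeq2, without replicate 2, without replicate 3 or without the block. ALDH1A3, which makes retinoic acid, rose from 36.9 ± 17.8 to 90.8 ± 24.5 CPM, which the fit put at 1.36 ± 0.13 on the log2 scale (adjusted p = 2.41e-06), with every SAL library above every DMSO library. The steroid sulfatase gene STS rose by 0.85 ± 0.13 (adjusted p = 0.000293). CYP24A1, which clears calcitriol and is the classical target of VDR, had no counts in any library, and CYP27B1, which makes calcitriol, was at -0.07 on the log2 scale (adjusted p = 0.876).

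Of the textbook targets of the listed receptors, 18 of 27 were tested, 6 were called higher (33.3%) and 2 lower (11.1%), and their median log2 fold change was 0.15. The glucocorticoid and mineralocorticoid targets were tested in full, and 5 of the 8 were higher in SAL (62.5%, against 11.5% of all genes), none lower, at a median of 0.91. Several of these genes are also known to respond to androgens, and the list was chosen with earlier results of these data known. The share of 62.5% is therefore a description of the list. The 5 rose in the libraries in which the RNA of NR3C1 and NR3C2 fell, with the fall of NR3C1 built in by the filter. A link between these targets and the 2 receptors was not tested. FKBP5, a co-chaperone of steroid receptors, rose by 3.36 ± 0.11 (adjusted p = 1.84e-11) and SGK1, a kinase that controls sodium transport, by 2.78 ± 0.19 (adjusted p = 6.54e-08). SGK1 was counted 58, 18 and 17 times in DMSO, and 306, 202 and 147 times in SAL, with no overlap between the groups. ZBTB16, TSC22D3 and PER1 rose by 1.08, 0.94 and 0.88, of which PER1 was not called without replicate 3. The log2 fold changes of KLF9, SCNN1A and DUSP1 were -0.12, -0.13 and 0.22, and none passed the threshold.

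Of the estrogen and progesterone targets, 3 of 7 were tested. GREB1 rose from 41.5 ± 19.7 to 193 ± 83.5 CPM (SD, n = 3), which the fit put at 2.23 ± 0.11 on the log2 scale (adjusted p = 1.50e-09), in cells in which ESR1 was at or under 3 counts. GREB1 is known to respond to androgens as well. CA12, a carbonic anhydrase, fell by 0.85 on the log2 scale (standard error 0.17, adjusted p = 0.00172), and XBP1 had a log2 fold change of 0.17. Of the 6 vitamin D targets, 2 were tested and none was called by edgeR with TMM scaling or by DESeq2, both with the block, the same filter and all libraries (1 at an unadjusted p under 0.05 in each, lower in SAL), with log2 fold changes of -0.36 for the calcium channel gene TRPV6 (adjusted p = 0.0517, edgeR) and 0.10 for ORAI1. TRPV6 was called in 3 of the 10 alternatives, with the size factors of DESeq2 in edgeR, without the filter on low counts and without replicate 2. Of the 6 targets of ERR alpha, 5 were tested. The cytochrome c gene CYCS fell by 0.36 on the log2 scale (adjusted p = 0.00984), which was lost without replicate 3, and the other 4 lay between -0.08 and 0.23 and were not called.

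**Figure D4:**
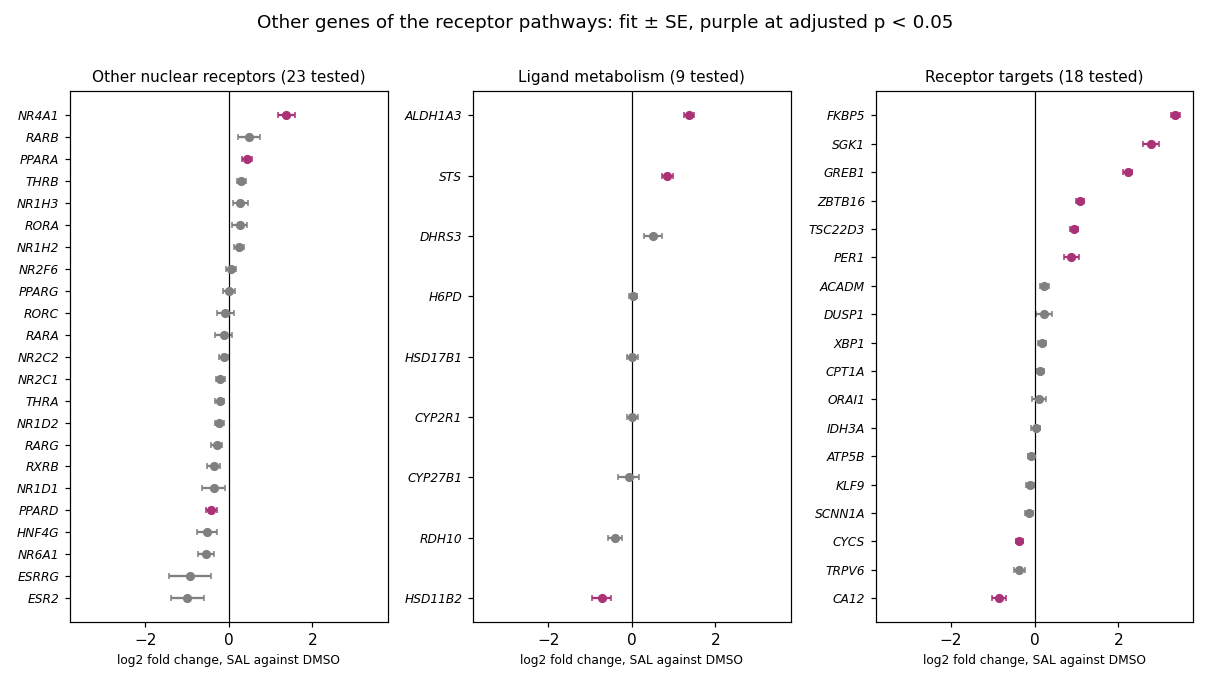
Fitted log2 fold change of SAL against DMSO, with bars of ± 1 standard error, for the tested genes of 3 lists, other nuclear receptors (23), ligand metabolism (9) and receptor targets (18). Purple points had an adjusted p under 0.05. The highest value is that of NR4A1 among the other nuclear receptors, of ALDH1A3 in ligand metabolism and of FKBP5 among the targets, and most of the other nuclear receptors lie near 0.

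For each called member, the genes of at least 10 CPM whose log2 CPM ran most alike over the 6 libraries were looked up. They were FEN1 and NUP85 for NR3C1 (Pearson's r of 0.990 and 0.989), B4GALT6 and ABCC5 for NR3C2 (0.995 for each), AGK and CLIC4 for PGR (0.996 and 0.982) and CAD and ZNF395 for VDR (0.999 for each). With 6 libraries that share depth, replicate and treatment, and 9906 or 9907 genes searched for each, such values are a description of these libraries only.

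**Figure D5:**
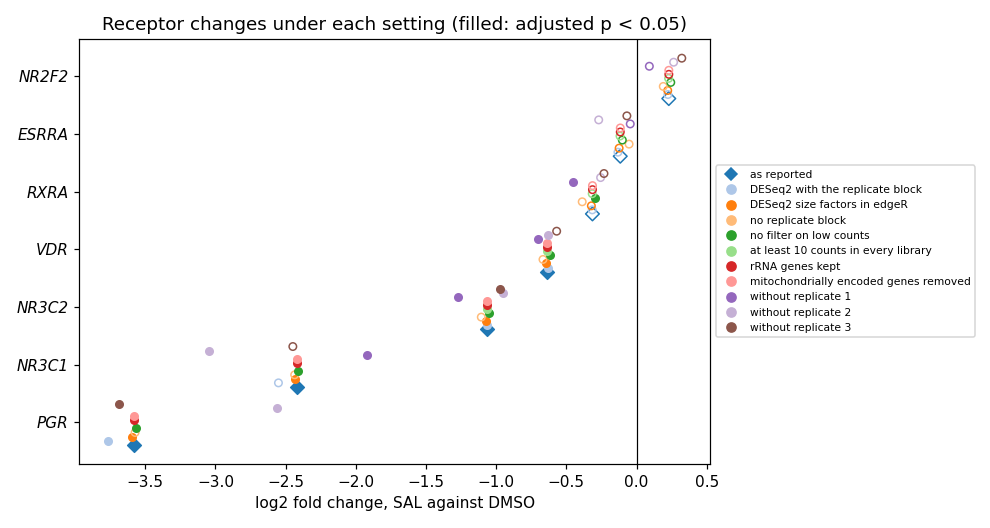
Log2 fold change of SAL against DMSO for the 7 receptors tested, as reported (diamonds) and under 10 other settings (circles, coloured by setting), filled where the adjusted p was under 0.05. Every receptor keeps its sign, NR3C2 is filled in all settings but the one with no replicate block, and NR3C1 and PGR have the widest ranges.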

How the data were processed

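RNA-seq counts of 6 C4-2 libraries (3 DMSO, 3 SAL) were used. Per the labels and the study's methods, the authors aligned trimmed reads, only read 1 of a pair, to hg19 (TopHat2 2.1.0). Counts per gencode v19 gene were then made from exons with HTSeq 0.11.2, ignoring strand, and deposited unnormalized. The 5 tally rows stayed out of the tests, and reads outside genes were 26.7% to 51.1% of the tallied reads. The LNCaP libraries were not analysed here.

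After removal of 523 rRNA gene symbols, filterByExpr and TMM scaling, the treatments were tested in edgeR 4.0.16 (R 4.3.3), with quasi-likelihood fits, robust dispersions and the replicate number as a block. The study's methods name a paired test, and same-numbered libraries deviated together, at correlations of 0.89, 0.86 and 0.74. A standard error is the size of the log2 change divided by the square root of F, and changes per pair use a prior count of 2. Exon lengths, positions and shared exon bases are from GRCh37 with GENCODE v44, newer than the authors' annotation. Alternatives were DESeq2 1.42.0 with the block, its size factors, no block, other filters, rRNA genes kept, mitochondrial genes removed and each replicate number left out.

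The edgeR fit was tested on simulated data with planted changes of 1 or 2 on the log2 scale, of which 81.9% and 100% were called. Of all calls there, 2.31% were of unchanged genes. The simulated counts were drawn with the spread that edgeR fits as a trend over expression level, so no gene varied around that trend. Only the 186 planted genes that passed the filter were scored. Smaller changes were not simulated, and scarce genes were not scored apart. Intervals and floors cover counting error only. The members and lists were chosen with earlier results of these data known. Named genes were the 9 members, all called genes of a list or the 6 with the smallest adjusted p, RXRB, NR4A1, CYP24A1, KLK3, the genes running most alike with a called member and those sharing exon bases. The sorting of members by their codons, and the genes named beyond the rule, which are RXRG, CYP27B1, ESR2, NR6A1, CA12, CYCS, the genes without counts and the uncalled targets, were chosen after values were seen.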

Additional observations from a re-analysis of the deposited data

How the results depend on the processing

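The 7 members tested kept the sign of their log2 fold change in each of the 10 alternatives that could test them, while their calls were less stable. With no replicate block, no member, no other nuclear receptor and no ligand metabolism gene was called (0 of each in edgeR, with 3, 1 and 1 at an unadjusted p under 0.05, while DESeq2 with the block called 3, 1 and 2), and 1 target was, FKBP5. At an adjusted p under 0.05, over all genes that fit called 18 higher and 3 lower. With at least 10 counts in every library, 2 members were called, because NR3C1 and PGR were not tested there. Leaving out each replicate number in turn gave 2 to 4 called members, 1 to 6 other nuclear receptors, 2 to 4 ligand metabolism genes and 6 to 9 targets. The value of 2 members was without replicate 3, where NR3C1 and VDR were lost, and 6 other receptors were called without replicate 1, where 2443 genes were called higher and 1955 lower of 16735 tested. DESeq2 with the block called 1 other nuclear receptor, NR4A1, and over all genes 1290 higher and 950 lower. The edgeR calls over all genes without replicate 3 were 750 higher and 483 lower, against 1931 and 1577 with all libraries. NR3C1 and PGR rest on at most 16 and 29 counts per library, and the intervals given above cover counting error only. Both passed the filter through DMSO alone, so these intervals do not bound the size of their fall.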

Other observations

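Several receptors and receptor-linked genes were at or near 0 in every library. Of the 38 other nuclear receptors, 5 had no counts at all, NR1H4, HNF4A, RXRG, NR2E1 and NR0B1, and another 10 had at most 15 counts in any library and were not tested. Of the ligand metabolism genes, CYP24A1, CYP26A1 and SULT1E1 had no counts, and of the targets AREG, CYP24A1 and PDK4. A count of 0 allows up to 0.329 to 0.410 CPM in these libraries. ESR2, the estrogen receptor beta gene, was lower in SAL in each pair, at 22, 8 and 21 counts in the DMSO replicates and 13, 5 and 9 in the SAL replicates, without passing the test (log2 fold change -0.99, adjusted p = 0.0940 from edgeR with the block). NR6A1, an orphan receptor, had all SAL libraries below all DMSO libraries at a log2 fold change of -0.55 (adjusted p = 0.0508, edgeR). It was called in 2 of the 10 alternatives, with the size factors of DESeq2 in edgeR and without replicate 1, and not in DESeq2 with the block.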
